A study of Mus musculus with 8 samples.

Results

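The zinc finger genes described here are the protein-coding mouse genes that GENCODE M21 names Zfp600 to Zfp999, with nothing after the number. There are 171 of them among the 48440 genes listed in the count files, and they lie on 20 chromosomes. Of these 171 genes, 157 had enough reads to be tested. The other 14 failed the filter on low counts, and 6 of those had no read in any library.

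C2H2 zinc finger proteins bind DNA through tandem fingers, each of which holds a zinc ion between a pair of cysteines and a pair of histidines. Many also carry a KRAB domain, which recruits TRIM28 and through it the histone methyltransferase SETDB1 and HP1 proteins, so that chromatin at the bound site is silenced. KRAB zinc finger genes have multiplied by duplication and sit in clusters, and in embryonic stem (ES) cells many are known for silencing transposable elements.

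RNA was sequenced from MK6 cells, a mouse ES cell line of the C57BL/6J strain, at day 1 of differentiation without feeder cells, with 2 libraries for each of 4 genotypes. Wild-type cells (WT) were compared with cells that lack exon 6 of Tbxt on both alleles (delE6/delE6, written Δexon6/Δexon6), with cells that lack it on 1 allele (delE6/+, written Δexon6/+), and with cells that carry the human AluSx1 and AluY elements on both sides of that exon (InsASAY, written insASAY). According to the study's methods the insertion is on both alleles. Tbxt encodes the T-box factor Brachyury, which is needed for mesoderm and tail formation. Both Δexon6/Δexon6 libraries came from different clones. For the other lines the sources used here do not say whether both libraries share a clone, and each p-value then measures only the spread between those libraries. The insASAY cells were engineered on feeder fibroblasts, while the exon 6 deletions were made without them, so that engineering conditions and genotype cannot be told apart. Each library held between 24618587 and 28445952 reads on genes. Tbxt itself (symbol T) was low, at 0.807 to 2.21 CPM (reads per 1e6 reads on genes, after TMM scaling of the libraries) in all libraries, and a count over the whole gene does not show whether exon 6 was deleted. All 8 ES cell markers were detected in every line, with summed levels of 1170 to 1210 CPM in wild-type libraries, 567 to 741 in Δexon6/Δexon6, 665 to 668 in Δexon6/+ and 784 to 827 in insASAY. Dppa5a (561 and 528 CPM in wild-type) and Pou5f1 (295 and 282) made up most of these sums, and not every marker was lower in the mutant lines, since Sox2 was at 117 and 109 CPM in Δexon6/+ against 71.2 and 66.2 in wild-type, and Zfp42 at 40.2 and 39.2 in insASAY against 29.4 and 28.7. The 10 fibroblast markers summed to 44.1 to 48.9 CPM in wild-type, 30.5 to 37.6 in Δexon6/Δexon6, 44.1 to 44.6 in Δexon6/+ and 21.3 to 21.4 in insASAY, with S100a4 at 0 in every library. The 7 primitive streak markers summed to between 10.9 and 23.3 CPM, and 1 of them was at 0 in both libraries of each mutant line. The part of these marker levels in the results that follow was not tested, and in such bulk samples fewer cells of a type cannot be told apart from less RNA per cell.

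Most members are long arrays of fingers. The longest annotated protein of each gene held a median of 11 fingers and at most 33, and in 7 members no finger matched the pattern. The core of the KRAB domain was found in 112 members and not in the other 59, which held medians of 11 and 7 fingers. There were 17 clusters, which hold 115 members, and 92 of these 115 carried the KRAB pattern. Of the 56 members outside the clusters, 20 carried it.

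In wild-type cells these genes were expressed at low levels. Their median level was 8.75 CPM, beside 14.7 CPM over all tested genes, and their median per kilobase of exon was 2.04 CPM, beside 3.9. Only 43 of the 157 tested members lay above that median of all genes per kilobase. At least 1 CPM was reached by 148 members and at least 10 CPM by 70. The highest level per kilobase was that of Zfp978, with 28.9 CPM per kilobase in wild-type. Zfp979 followed with 22.5, Zfp655 with 22, Zfp706 with 20.6 and Zfp984 with 19.7 CPM per kilobase. Zfp978, Zfp979 and Zfp984 lie in the chromosome 4 cluster and share 66.43%, 23.61% and 40.92% of their 75-base stretches with other genes, and reads that map to several places are not counted. All 5 members stayed under the thresholds against wild-type, with Zfp978 nearest at -0.49 (edgeR adjusted p = 0.00319) in Δexon6/+.

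A gene was called where the edgeR quasi-likelihood test gave a Benjamini-Hochberg adjusted p below 0.05 together with a log2 fold change beyond 0.5 in either direction. By this rule many members were higher in both homozygous lines. Against wild-type, 42 of the 157 tested members were called in Δexon6/Δexon6 cells, of which 39 rose and 3 fell. Of all 17049 tested genes, 12.7% were called in that comparison, 6.12% as higher and 6.59% as lower. In insASAY cells 70 members were called, of which 66 rose and 4 fell. There 21.3% of all genes were called, 11.5% higher and 9.85% lower. The median log2 fold change of the members was 0.19 in Δexon6/Δexon6 and 0.41 in insASAY, and that of all genes was -0.01 in both. These comparisons share the wild-type libraries. The share of all reads on genes that fell on members ran from 0.265% to 0.268% in wild-type, from 0.292% to 0.319% in Δexon6/Δexon6 and from 0.331% to 0.339% in insASAY libraries, so that the groups did not overlap.

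Fewer members were called in Δexon6/+ cells. There 14 members were called, 10 higher and 4 lower, beside 13.5% of all genes, 6.6% higher and 6.89% lower. Their median log2 fold change was 0.04, and 0.273% to 0.277% of reads fell on members. This range also did not overlap that of wild-type, and lay below those of the homozygous lines. The 189 tested genes from Zfp1 to Zfp599 showed 36 calls in Δexon6/Δexon6 (33 higher), 13 in Δexon6/+ (9 higher) and 66 in insASAY (59 higher), with medians of 0.15, 0.01 and 0.26. The difference between these genes and the members was not tested.

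**Figure D1:**
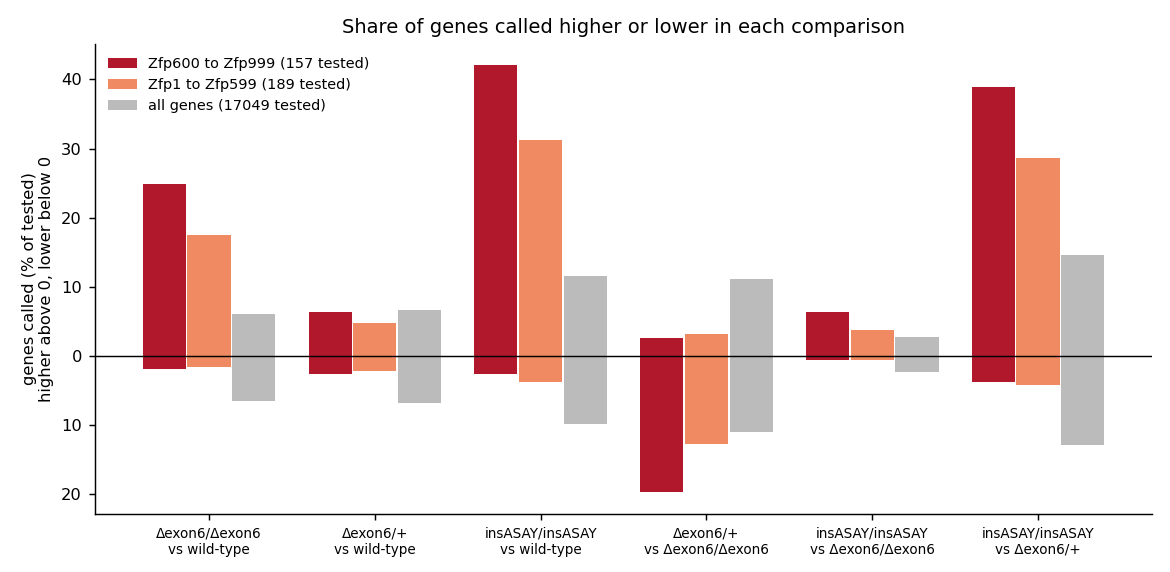
Percent of tested genes called higher (above 0) or lower (below 0) in each of 6 comparisons, for members (157 tested), for Zfp1 to Zfp599 (189 tested) and for all genes (17049 tested). In insASAY against wild-type, 66 members were called higher and 4 lower, while all genes were called at 11.5% higher and 9.85% lower.

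Several measured properties of the members accompany these counts. The median GC content of their exons was 42.0%, beside 50.0% over tested genes. After the trends of the libraries with GC content and length were taken out (an alternative chosen after seeing the data), 39, 11 and 64 members were called in Δexon6/Δexon6, Δexon6/+ and insASAY, and the medians were 0.14, 0.04 and 0.3. The 11 calls in Δexon6/+ were 6 higher and 5 lower, in place of 10 and 4. Members that rose in insASAY cells had a median wild-type level of 5.38 CPM, and those not called there had 13.7 CPM. This is a description, since the wild-type levels entered the call. The TREAT test, which tests for a log2 fold change beyond 0.5 rather than beyond 0, called 7, 4 and 38 members in the 3 lines.

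Several of the largest rises in insASAY cells were in members that were low in wild-type. Zfp758 is a KRAB gene with 12 fingers in the larger chromosome 17 cluster. It had 27 and 28 reads in wild-type cells, 63 and 121 in Δexon6/Δexon6, 48 and 52 in Δexon6/+ and 155 and 139 in insASAY. All 6 mutant libraries were above both wild-type libraries. Such separation was part of the rule by which members with large changes were named, here and below, and is a description. The log2 fold change of Zfp758 was 1.8 (SE 0.276, edgeR quasi-likelihood test, adjusted p = 0.000456) in Δexon6/Δexon6 and 2.41 (SE 0.26, adjusted p = 1.61e-05) in insASAY. In Δexon6/+ it was 0.96 (SE 0.305, adjusted p = 0.0287), a call that was lost when any single wild-type or Δexon6/+ library was left out (adjusted p 0.070 to 0.145).

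Zfp882, with 14 fingers and no KRAB match, had the largest log2 fold change of the named members in both homozygous lines. It had 10 and 20 reads in wild-type cells, 51 and 107 in Δexon6/Δexon6, 23 and 23 in Δexon6/+ and 124 and 85 in insASAY. Both homozygous lines lay above every wild-type and heterozygous library. The log2 fold change was 2.45 (SE 0.391, edgeR adjusted p = 0.000587) in Δexon6/Δexon6 and 2.78 (SE 0.376, adjusted p = 7.57e-05) in insASAY, and 0.71 (adjusted p = 0.302) in Δexon6/+. Zfp882 overlaps Zfp617 on the same strand of chromosome 8. The annotated starts are 27 bases apart and the exons share 104 bases, or 2.91% of Zfp882 and 3.44% of Zfp617, where STAR gives a read to neither gene. Zfp617 had 452 and 410 reads in wild-type, 522 and 671 in Δexon6/Δexon6, 431 and 363 in Δexon6/+ and 680 and 665 in insASAY. It also rose in both homozygous lines, with log2 fold changes of 0.54 (adjusted p = 0.00104) and 0.64 (adjusted p = 0.000132), although the call in Δexon6/Δexon6 was lost without the Δexon6/Δexon6 clone 2 library (log2 fold change 0.42), without wild-type library 2 (0.49) and with the GC and length offsets (0.46). Of its 75-base stretches, 36.55% occur in other genes.

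Zfp719 is a KRAB gene with 13 fingers in a cluster of chromosome 7. It had 132 and 118 reads in wild-type, 228 and 400 in Δexon6/Δexon6, 140 and 95 in Δexon6/+ and 432 and 387 in insASAY. Both homozygous lines lay above the other libraries, while wild-type and Δexon6/+ overlapped. Its log2 fold change was 1.39 (SE 0.202, edgeR adjusted p = 0.000335) in Δexon6/Δexon6, 1.71 (SE 0.198, adjusted p = 2.56e-05) in insASAY and 0.01 (SE 0.229, adjusted p = 0.981) in Δexon6/+. Zfp933, with 12 fingers, had 64 and 55 reads in wild-type, 126 and 239 in Δexon6/Δexon6, 81 and 72 in Δexon6/+ and 265 and 244 in insASAY. It was the only one of the 17 members of the chromosome 4 cluster called higher against wild-type in any line, at 1.68 (adjusted p = 0.000251) and 2.09 (adjusted p = 1.51e-05). Zfp628, with 16 fingers, had 134 and 158 reads in wild-type and 448 and 396 in insASAY, a log2 fold change of 1.52 (adjusted p = 6.5e-05). In Δexon6/Δexon6 its clones had 192 and 363 reads (log2 fold change 0.98, adjusted p = 0.00321). Zfp943 of the larger chromosome 17 cluster rose from 48 and 42 reads to 81 and 128 in Δexon6/Δexon6, a log2 fold change of 1.28 (edgeR adjusted p = 0.000707).

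Promoters of 4 members are shown: those of Zfp882 and Zfp758, which rose in both homozygous lines from low counts, and those of the neighbours Zfp719 and Zfp819, of which the first rose in both homozygous lines and the second was called in opposite directions in Δexon6/+ and insASAY. RefSeq promoter windows of 300 bases on GRCm38.p6 were found for 144 members. They were searched on both strands for 5 motifs, and matches are in capitals. The motifs were a T-box site (AGGTGTGA), an ETS site (CCGGAAGT), the NRF1 core (GCATGCGC), a YY1 site (AAGATGGCG) and a cAMP response element (TGACGTCA). Zfp882 (plus strand, chr8:71908356-71908655), whose window also holds the annotated start of Zfp617, had 2 YY1 matches. Zfp758 (plus strand, chr17:22361213-22361512) had none of the motifs. Zfp719 (plus strand, chr7:43579336-43579635) and its neighbour Zfp819 (plus strand, chr7:43606919-43607218) had NRF1 matches, which in Zfp719 overlap each other because the core is nearly its own reverse complement.
Zfp882: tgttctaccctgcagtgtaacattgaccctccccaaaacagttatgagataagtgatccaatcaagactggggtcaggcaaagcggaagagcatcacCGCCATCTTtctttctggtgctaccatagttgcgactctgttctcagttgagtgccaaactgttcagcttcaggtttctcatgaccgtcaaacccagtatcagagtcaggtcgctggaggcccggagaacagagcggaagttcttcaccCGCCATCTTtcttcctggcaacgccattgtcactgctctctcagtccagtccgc
Zfp758: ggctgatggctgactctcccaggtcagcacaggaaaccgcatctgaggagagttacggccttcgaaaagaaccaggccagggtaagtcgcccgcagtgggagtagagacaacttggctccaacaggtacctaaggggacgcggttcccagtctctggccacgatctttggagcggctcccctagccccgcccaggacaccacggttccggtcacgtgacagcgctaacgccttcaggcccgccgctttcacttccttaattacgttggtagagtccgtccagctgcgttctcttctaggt
Zfp719: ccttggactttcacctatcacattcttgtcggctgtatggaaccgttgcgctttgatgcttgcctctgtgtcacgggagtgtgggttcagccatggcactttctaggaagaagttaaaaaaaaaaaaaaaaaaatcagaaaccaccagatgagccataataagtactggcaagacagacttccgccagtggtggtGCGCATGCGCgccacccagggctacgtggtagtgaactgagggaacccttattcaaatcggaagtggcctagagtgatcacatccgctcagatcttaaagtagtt
Zfp819: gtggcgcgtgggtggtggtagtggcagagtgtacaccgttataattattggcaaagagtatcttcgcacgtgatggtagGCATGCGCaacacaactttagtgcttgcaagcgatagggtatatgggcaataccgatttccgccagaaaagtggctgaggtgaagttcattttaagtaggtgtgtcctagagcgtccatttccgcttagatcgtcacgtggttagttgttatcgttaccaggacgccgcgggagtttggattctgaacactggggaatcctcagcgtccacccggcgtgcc

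The T-box letters were in a promoter of 5 of the 144 members (3.47%) and of 399 of 27025 genes (1.48%). The NRF1 core was in 8 members (5.56%) and 3.05% of genes, the ETS site in 10 members (6.94%) and 4.31% of genes, the YY1 site in 2 members (1.39%) and 1.64% of genes, and the cAMP response element in 2 members (1.39%) and 2.03% of genes. Of the 58 members with a promoter that rose in insASAY cells, 2 held the T-box letters, 3 the ETS site, 4 the NRF1 core, 2 the YY1 site and 1 the cAMP response element.

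Few members fell. Zfp712, a KRAB gene with 20 fingers, fell in every mutant line. It had 299 and 288 reads in wild-type, 182 and 174 in Δexon6/Δexon6, 196 and 174 in Δexon6/+ and 131 and 118 in insASAY. No mutant line overlapped wild-type, which the naming rule asked for. The log2 fold change was -0.65 (SE 0.12, edgeR adjusted p = 0.00151) in Δexon6/Δexon6, -0.56 (SE 0.12, adjusted p = 0.00294) in Δexon6/+ and -1.24 (SE 0.126, adjusted p = 1.07e-05) in insASAY. Zfp960 fell in both homozygous lines, from 436 and 436 reads to 268 and 256 in Δexon6/Δexon6 (log2 fold change -0.66, adjusted p = 0.000698) and to 263 and 227 in insASAY (-0.84, adjusted p = 6.07e-05). It shares 75.33% of its 75-base stretches with other genes. Zfp980 fell in Δexon6/Δexon6 cells, at -0.54 (adjusted p = 0.00822), and shares 56.07% of these stretches. Its call was lost at the p threshold without wild-type library 1 (log2 fold change -0.53), and without the clone 2 library (-0.45). Zfp692 and Zfp773 fell in insASAY cells, at -0.56 (adjusted p = 0.000694) and -0.7 (adjusted p = 0.0174). The call for Zfp692 was lost without wild-type library 2 (log2 fold change -0.48), and that for Zfp773 with DESeq2 (adjusted p = 0.0511), without wild-type library 1 (0.168) and without insASAY library 1 (0.125).

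Other members were called in Δexon6/+ cells. Zfp608 had 209 and 207 reads in wild-type and 899 and 770 in Δexon6/+, a log2 fold change of 2.1 (SE 0.106, edgeR adjusted p = 4.62e-08). It had 272 and 367 reads in Δexon6/Δexon6 and 412 and 382 in insASAY, between wild-type and heterozygous libraries, and rose there by 0.69 (adjusted p = 0.000798) and 0.93 (adjusted p = 3.46e-05). Zfp608 was lower in insASAY than in Δexon6/+ by a log2 fold change of -1.18 (adjusted p = 9.83e-07). Zfp809, which is known to silence retroviruses in ES cells by binding their primer binding site, was called lower in this line and in neither of the others. It had 610 and 557 reads in wild-type, 545 and 644 in Δexon6/Δexon6, 325 and 301 in Δexon6/+ and 629 and 662 in insASAY. The heterozygous libraries lay below all others. The log2 fold change was -0.8 (SE 0.0854, adjusted p = 1.6e-05) against wild-type and -0.89 (adjusted p = 3.68e-06) against Δexon6/Δexon6. Zfp985 of the chromosome 4 cluster had 724 and 817 reads in wild-type and 432 and 436 in Δexon6/+, a log2 fold change of -0.73 (adjusted p = 6.06e-05).

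Zfp819, a KRAB gene known for repressing transposable elements in pluripotent cells, was called in opposite directions. It had 41 and 35 reads in wild-type, 51 and 35 in Δexon6/Δexon6, 13 and 9 in Δexon6/+ and 68 and 71 in insASAY. The heterozygous libraries were the lowest and the insASAY libraries the highest. The log2 fold change was -1.68 (SE 0.343, edgeR adjusted p = 0.00233) in Δexon6/+ and 0.86 (SE 0.243, adjusted p = 0.0106) in insASAY. The call in insASAY was lost with DESeq2 (adjusted p = 0.0795), without wild-type library 2 (0.0766) and without insASAY library 2 (0.0609). Between both lines the difference was 2.54 (SE 0.31, adjusted p = 2.09e-05). Zfp719 ends 13933 bases before the start of Zfp819 on the same strand, and its level in Δexon6/+ was close to that in wild-type, at 4.59 ± 1.0 against 4.58 ± 0.264 CPM (SD, n = 2).

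The other rises in Δexon6/+ were smaller. Zfp703, a co-repressor without a finger match that is known from luminal breast cancer, had 552 and 539 reads in wild-type and 1098 and 882 in Δexon6/+, a log2 fold change of 0.96 (adjusted p = 0.000271). It was also called higher in Δexon6/Δexon6 (0.99, adjusted p = 0.000359) and insASAY (1.12, adjusted p = 5.23e-05). Zfp970 of the chromosome 2 cluster had 76 and 59 reads in wild-type and 103 and 104 in Δexon6/+ (0.72, adjusted p = 0.00939), a call lost without wild-type library 2 (adjusted p = 0.1) and without Δexon6/+ library 2 (0.0706). Zfp697 (0.61, adjusted p = 0.0383) lost its call with DESeq2 (adjusted p = 0.115), with a replicate block (0.051), with the GC and length offsets (0.0682) and without any single wild-type or Δexon6/+ library (0.0919 to 0.193). Zfp697 and Zfp687 were the called members of the 4 on chromosome 3, where all tested genes together had a median log2 fold change of 0.32 in this line and 36.1% were called. Without wild-type library 2, the count of members called in Δexon6/+ fell from 14 to 9, of which 5 were higher and 4 lower. Zfp687 and the chromosome 8 members Zfp709 and Zfp961 were named after their values were seen.

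**Figure D2:**
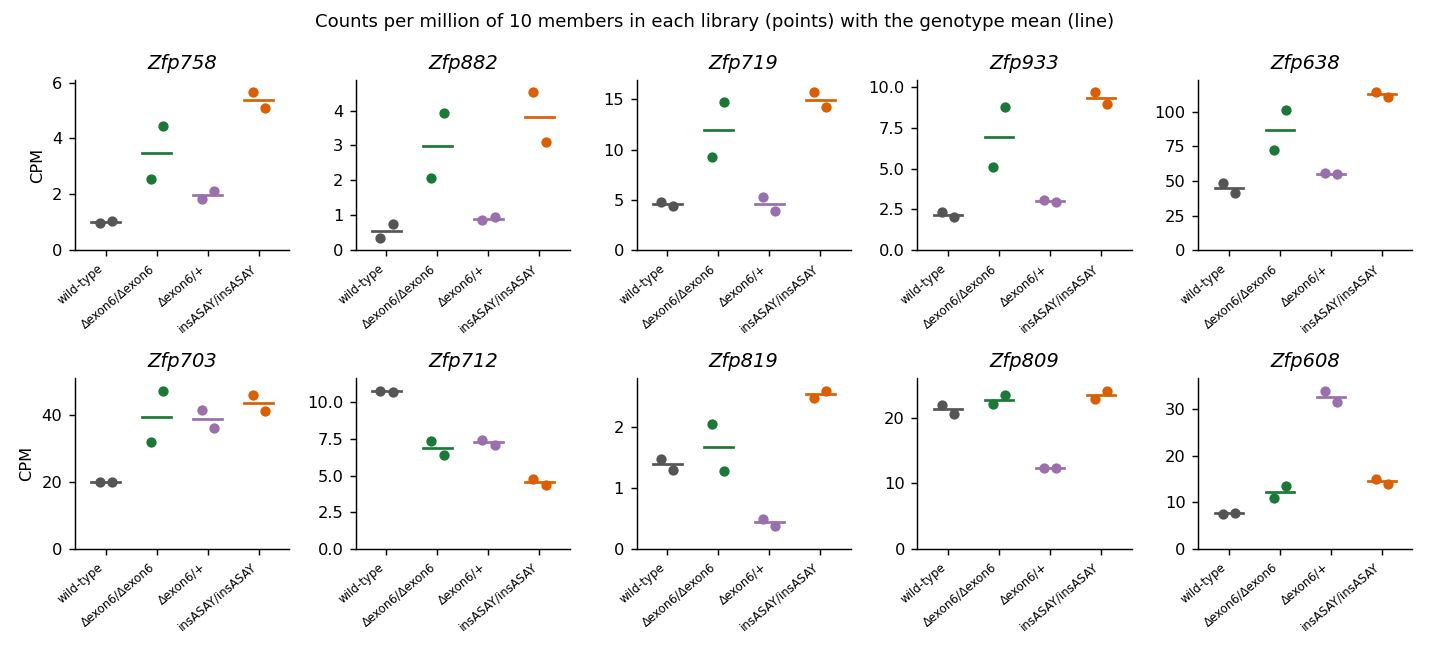
Level in CPM (linear axis from 0) of 10 members in each library as points, with the mean of the 2 libraries of each genotype as a line. Zfp758, Zfp882, Zfp719, Zfp933 and Zfp638 were highest in the homozygous lines, Zfp712 was highest in wild-type, and Zfp819 and Zfp809 were lowest in Δexon6/+.

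The clones of Δexon6/Δexon6 differed, but each had 1 library, so that clone and library cannot be told apart. Of the 157 tested members, 118 (75.2%) were higher in clone 2 than in clone 1, beside 50.1% of all tested genes, and the median difference was 0.16 against 0.0 on the log2 scale. Among the 39 members that rose in this line, 38 were higher in clone 2, a description since both clones entered the call. Set against the wild-type mean, the median log2 difference of the members was 0.15 in clone 1 and 0.23 in clone 2. The heterozygous libraries stood at 0.04 and 0.02, and those with the insertion at 0.4 and 0.38. Among members with a mean of at least 2 CPM in this line, the largest differences between clones (clone 2 minus clone 1) were 0.9 for Zfp882, 0.78 for Zfp758, 0.77 for Zfp628, 0.77 for Zfp933 and 0.67 for Zfp651. Zfp651 had 159 and 156 reads in wild-type, 181 in clone 1 and 319 in clone 2, and its call against wild-type (0.73, edgeR adjusted p = 0.0071) was lost without clone 2 (adjusted p = 0.0691) or wild-type library 1 (0.0518). Without the clone 2 library 27 members were called in Δexon6/Δexon6, and without the clone 1 library 57. With 1 clone left, its spread was taken from the other groups.

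**Figure D3:**
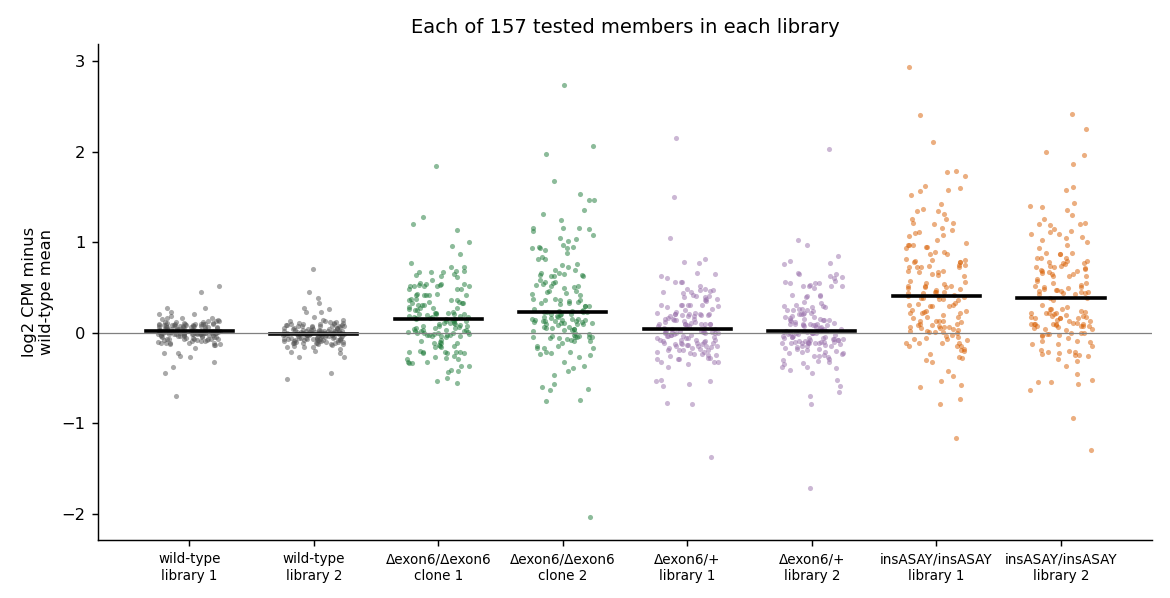
Log2 CPM of each of the 157 tested members minus its wild-type mean, in each library. Points are members and lines are library medians, which were 0.15 and 0.23 in the clones of Δexon6/Δexon6, 0.04 and 0.02 in Δexon6/+ and 0.4 and 0.38 in insASAY.

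The mutant lines were also compared with each other. Between Δexon6/+ and Δexon6/Δexon6 cells 35 members were called, 4 higher and 31 lower in the heterozygous line, beside 22.2% of all genes, 11.2% higher and 11.0% lower. Zfp882 (-1.73, edgeR adjusted p = 0.00158), Zfp819 (-1.93, adjusted p = 0.000428) and Zfp719 (-1.38, adjusted p = 0.000125) were the named falls. Zfp608 (1.42, adjusted p = 3.23e-07), Zfp956 (0.9, adjusted p = 4.36e-05) and Zfp970 (0.76, adjusted p = 0.00474) were the named rises. Without the clone 2 library the count was 22. Between insASAY and Δexon6/+ cells 67 members were called, 61 higher and 6 lower, beside 27.5% of all genes, 14.6% higher and 13.0% lower. Zfp956 was lower in insASAY (-0.77, adjusted p = 0.000106).

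Between the homozygous lines the calls were the fewest of all comparisons, among members and among all genes. In insASAY against Δexon6/Δexon6 cells 11 of the 157 tested members were called (7.01%), 10 higher and 1 lower. Of all genes 5.16% were called, 2.79% higher and 2.38% lower. The median log2 fold change of the members was 0.18, with 126 above 0 and 31 below, beside 0.01 over all genes. All 11 called members carried the KRAB pattern, which 103 of the 157 tested members have. Zfp936 was higher by 0.69 (edgeR adjusted p = 0.00128), with 385 and 517 reads in Δexon6/Δexon6 and 829 and 704 in insASAY. Zfp786 (1.07, adjusted p = 0.0326) and Zfp950 (0.76, adjusted p = 0.0282) were also higher, and both calls were lost with DESeq2 (adjusted p = 0.14 and 0.1), in a fit of these groups alone (0.088 and 0.0502) and without the clone 1 library (0.166 and 0.0539) or either insASAY library (0.0603 to 0.247). Zfp712 was lower by -0.59 (adjusted p = 0.00969), a call lost in a fit of these groups alone (0.06) and without either insASAY library (0.0546 and 0.0862). The count depended on single libraries of both lines, and each clone had 1 library.

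The calls of some of the 17 clusters are given here, among them those with the most rises. Of all tested genes, 6.12% were called higher in Δexon6/Δexon6, 6.6% in Δexon6/+ and 11.5% in insASAY. Members outside the clusters rose as well: of 50 tested, 10, 6 and 17 were called higher in these lines. Of the 107 tested members in clusters, 29, 4 and 49 were called higher, and the difference was not tested. The cluster of 14 KRAB genes at chr17:21383748-22867134 held 12 members that rose in insASAY cells and 8 that rose in Δexon6/Δexon6, with medians of 0.84 and 0.6. All 14 had log2 fold changes above 0 in both lines, from 0.12 to 2.41 and from 0.09 to 1.8. In Δexon6/+ 1 of the 14 was called, with a median of 0.4. Inside the same span, 5 other zinc finger genes were tested, and 5 of them lay above 0 in insASAY (median 0.33), 4 in Δexon6/Δexon6 (median 0.18) and 1 in Δexon6/+ (median -0.29). Of these 5 genes, 1 was called higher in insASAY and 1 lower in Δexon6/+. At chr8:71882019-71993792 all 4 members (Zfp709, Zfp882, Zfp617 and Zfp961) rose in insASAY cells, with a median of 1.02, and 3 rose in Δexon6/Δexon6. Zfp961 rose from 640 and 678 to 1096 and 945 reads in insASAY (0.62, edgeR adjusted p = 0.000389). The smaller chromosome 17 cluster, at chr17:32765496-33033402, held 6 KRAB genes. Of these, 2 rose in insASAY (median 0.3) and 1 in Δexon6/Δexon6. In the clusters of chromosomes 6 and 9, 1 of 5 members rose in insASAY in each. In the chromosome 11 cluster of 3 members, 0 rose and 1 fell there (median -0.29).

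Chromosome 7 held 4 clusters. In the third, at chr7:41633203-43618285, 6 of 9 members rose in insASAY cells and 3 in Δexon6/Δexon6, with medians of 0.81 and 0.25. In the fourth, at chr7:127244274-127885996, 6 of 9 rose in insASAY and 4 in Δexon6/Δexon6, with medians of 0.74 and 0.42. The 19 other protein-coding genes tested inside that span had a median of 0.09 in insASAY, and 3 were called higher. Like genes rose too in some other spans and not in others. Inside the third cluster of chromosome 7, 2 of 6 other protein-coding genes rose in insASAY, with a median of 0.62. Inside the second, at chr7:27807196-28014115, all 3 other zinc finger genes rose (median 1.23), beside 2 of its 3 members (median 0.85). Inside the chromosome 2 cluster 8 of 22 other protein-coding genes rose (median 0.38), beside 1 of its 5 tested members (median 0.41). Inside the first cluster of chromosome 7, 1 of 9 other zinc finger genes rose (median 0.06). Of its 8 members, 4 rose and 1 fell (median 0.49). Of 55 other protein-coding genes inside the chromosome 9 cluster, 4 rose and 10 fell (median -0.07). Inside the chromosome 15 cluster 5 of 43 rose and 2 fell (median -0.15). In all spans these genes were sorted by symbol alone (Zfp, Zkscan, Zscan or Znf for zinc finger genes). The other protein-coding genes can therefore include zinc finger genes under other names. The chromosome 4 cluster at chr4:145510759-147848366, with 17 KRAB genes, differed in its counts: its medians were -0.08, -0.19 and 0.02 in Δexon6/Δexon6, Δexon6/+ and insASAY, and 2, 1 and 1 of its members were called. Differences between clusters were not tested. In the chromosome 4 cluster 14 of the 17 members share at least 10% of their 75-base stretches with other genes (median 54.8%), and their values are uncertain for that reason. Among the 123 tested members that share under 10% of these stretches, 35, 13 and 57 were called in the 3 lines.

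**Figure D4:**
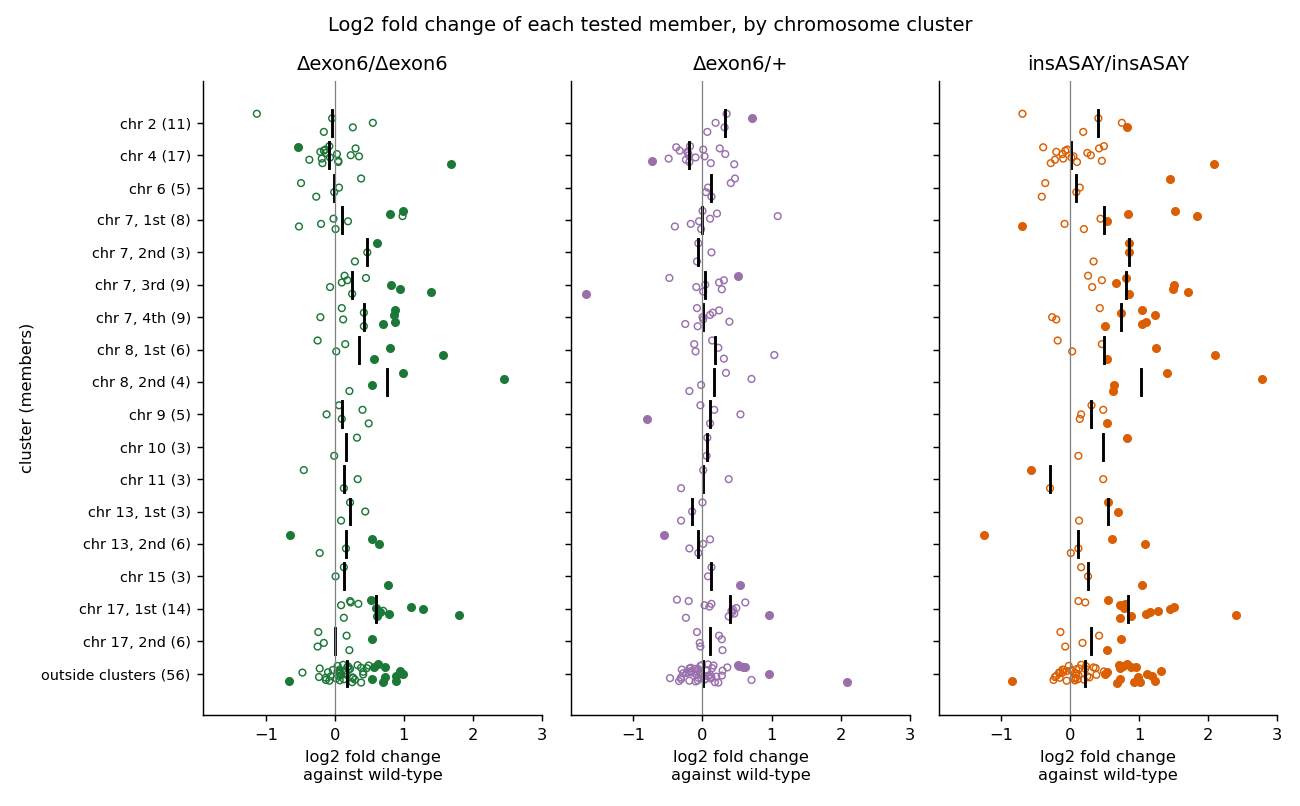
Log2 fold change against wild-type of each tested member (points, filled where called) in the 3 mutant lines, by chromosome cluster, with the number of members in parentheses. Bars are medians. The chromosome 17 cluster of 14 members lay above 0 in both homozygous lines, and the chromosome 4 cluster of 17 lay around 0 with Zfp933 apart.

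Members with and without the KRAB pattern were both among the rises. In insASAY cells 48 of 103 tested members with the pattern were called, 45 higher, and 22 of 54 without it, 21 higher. In Δexon6/Δexon6 27 of 103 and 15 of 54 were called. The difference between these sets was not tested. A list of 25 KRAB cofactors and partners in chromatin silencing, which also holds the zinc finger gene Zfp57, was examined. Of these, 0 were called by edgeR or DESeq2 in Δexon6/Δexon6 (14 at an unadjusted p under 0.05 by each). By edgeR 2 were called in Δexon6/+ and 3 in insASAY. Of all tested genes, 12.7%, 13.5% and 21.3% were called in the 3 lines. Trim28, the shared co-repressor, was at 870 ± 28.5 CPM in wild-type, 726 ± 20.1 in Δexon6/Δexon6, 888 ± 41.6 in Δexon6/+ and 867 ± 12.8 in insASAY (SD, n = 2), and was not called in any line, with a log2 fold change of -0.26 (edgeR adjusted p = 0.00119) in Δexon6/Δexon6, under the fold threshold. Smarcad1 (0.58, adjusted p = 1.37e-05) and Fam208a, a subunit of the HUSH silencing complex (0.57, adjusted p = 1.03e-05), rose in insASAY cells. Zfp57, which maintains imprints, fell there by -0.57 (adjusted p = 0.000488) and in Δexon6/+ by -0.62 (adjusted p = 0.000421). Setdb1, the methyltransferase, which lies on chromosome 3, rose in Δexon6/+ (0.51, adjusted p = 1.03e-05).

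Members with described roles outside or beside transposon silencing varied. Zfp638, an RNA- and DNA-binding protein known for its part in adipocyte formation and in the silencing of retroviral DNA, had 1356 and 1117 reads in wild-type, 1783 and 2753 in Δexon6/Δexon6, 1475 and 1343 in Δexon6/+ and 3137 and 3033 in insASAY. It was higher in both homozygous lines, by 0.94 (edgeR adjusted p = 0.000165) and 1.32 (adjusted p = 5.03e-06), and at 0.29 (adjusted p = 0.09) in Δexon6/+. Zfp704 rose in insASAY, from 795 and 695 to 1253 and 1285 reads (0.76, edgeR adjusted p = 4.54e-05). In Δexon6/Δexon6 its value was 0.49 (adjusted p = 0.00217), just under the fold threshold, and it passed with DESeq2 (0.5). Zfp827, whose human counterpart brings the NuRD complex to telomeres, was just over it in insASAY (0.51, adjusted p = 0.0022), and fell under it without wild-type library 2 (0.47) or insASAY library 1 (0.45). Zfp932, known for repressing endogenous retroviruses, had values of -0.22 (adjusted p = 0.139), -0.19 (0.213) and 0.13 (0.322) in Δexon6/Δexon6, Δexon6/+ and insASAY.

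Zfp746 (PARIS), a repressor of Ppargc1a, stayed within -0.01 to 0.09, with no call. Zfp622, a factor of ribosome maturation, had 1896 and 1873 reads in wild-type and 1450 and 1374 in Δexon6/+ (-0.31, adjusted p = 0.00107), under the fold threshold. Zfp706, known for limiting self-renewal of ES cells, had values of 0.29 (adjusted p = 0.000979), 0.03 (0.682) and 0.2 (0.00654) in Δexon6/Δexon6, Δexon6/+ and insASAY. Zfp750, a factor of epidermal differentiation, was present at 3.46 ± 0.153 CPM in wild-type and 2.5 ± 0.163 CPM in Δexon6/+ (SD, n = 2; -0.47, adjusted p = 0.0555). Zfp600 had values of -0.16, -0.33 and -0.07, with no call.

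Overlap with other genes limits a few members. Zfp708, known for binding a mouse retroviral repeat, shares 96.35% of its exon bases with Gm28557 on the same strand and had 1 read in all 8 libraries, so that its expression was not measured. Zfp935 shares 98.47% with Gm49359, which is not among the counted genes, and all of its 75-base stretches occur in other genes. It had 133 and 131 reads in wild-type and 222 and 206 in insASAY (0.69, adjusted p = 0.00212), a level that is uncertain. Zfp963 shares 40.76% of its bases with Gm20422 and had 8 and 6 reads in wild-type and 28 and 33 in insASAY (2.1, adjusted p = 0.000432), so that its level is uncertain. Zfp652, at -0.15 (adjusted p = 0.0665) in insASAY, shares 11.77% with Phospho1 and was not called in any line. Zfp865, with 15.91% of its bases overlapped on its strand, rose in Δexon6/Δexon6 (0.8, adjusted p = 0.000146) and in insASAY (0.84, adjusted p = 2.85e-05). Without the 20 members that overlap a gene on their own strand, 36, 14 and 62 members were called in Δexon6/Δexon6, Δexon6/+ and insASAY.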

How the data were processed

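Poly(A) RNA of 8 libraries was sequenced. The authors mapped reads to mm10 with STAR 2.7.2a (processing notes also list DESeq2 1.40.2) and deposited raw read counts per gene, unnormalized. The authors' annotation release is not given in the sources used here. Of 3 count columns, the reverse-strand column was used. IDs were matched without version to GENCODE M21 (48058 of 48440). edgeR 4.0.16 in R 4.3.3 fitted all 8 libraries together with TMM scaling, filterByExpr (minimum count 10, minimum total 15) and a quasi-likelihood test, with Benjamini-Hochberg adjustment over 17049 genes. Calls needed an adjusted p below 0.05 with a log2 fold change beyond 0.5. DESeq2 1.42.0, other filters, scalings and strands, a replicate block, TREAT and each library left out were alternatives. Python 3.11.15 with pandas 2.3.3, numpy 2.4.6 and matplotlib 3.10.9 made tables and plots. The main edgeR fit was tested on simulated counts, and the other steps were not. Per-gene counts cover counting error and library spread only.

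Members named in the text were the called members with the largest changes per comparison (up to 5 each way against wild-type, up to 3 between mutants, mean of at least 1 CPM, and both libraries beyond both of the other group), the 5 highest per kilobase, the 5 that differed most between clones, those with 10% or more same-strand overlap, and members of known role. Others were named after their values were seen. The members and lists were chosen with earlier results of these data known. Clusters were runs of 3 or more members with starts under 1.5 Mb apart. Zinc fingers and the KRAB core were read as residue patterns in the longest annotated protein, and the KRAB pattern can miss genes.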

Additional observations from a re-analysis of the deposited data

Results flagged for a closer look

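Zfp819 moved in opposite directions in the lines that were compared with the same wild-type libraries. It was lower in Δexon6/+ and higher in insASAY, and the difference between these lines was 2.54 on the log2 scale (edgeR adjusted p = 2.09e-05), with both insASAY libraries (68 and 71 reads) above both Δexon6/+ libraries (13 and 9 reads). No other member was called in opposite directions in 2 lines.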

How the results depend on the processing

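The counts of called members kept within 1.5 times of the reported ones under most alternatives. The TREAT test called 7 members in Δexon6/Δexon6, 4 in Δexon6/+ and 38 in insASAY against wild-type, 10 in Δexon6/+ and 0 in insASAY against Δexon6/Δexon6 (3 at an unadjusted p under 0.05, and edgeR called 11 and DESeq2 6), and 27 in insASAY against Δexon6/+, and it asks for more than the reported test by construction. For insASAY against Δexon6/Δexon6 the count was 6 with DESeq2, 7 with GC and length offsets and 5 in a fit of these groups alone, and the cause was not tested. With each library left out in turn, the counts ran from 27 to 57 in Δexon6/Δexon6, from 9 to 13 in Δexon6/+ and from 64 to 70 in insASAY against wild-type, from 22 to 48 and from 2 to 37 in Δexon6/+ and insASAY against Δexon6/Δexon6, and from 57 to 66 in insASAY against Δexon6/+. Libraries with the same replicate number showed little shared deviation from their genotype means (correlations from -0.01 to 0.049). With 2 libraries per genotype this cannot exclude a shared batch. With the replicate number as a block, 42, 13, 70, 34, 9 and 68 members were called, in the order of the comparisons above. The 100 called values of named members gave 1292 combinations of a value and a setting, which reuse the same libraries. No value turned direction. The call was lost in 124 of these combinations, at least once outside TREAT for 26 values. Reads limit members with few counts: Zfp882 rested on 10 and 20 reads in wild-type.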

Other observations

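Of the 14 members without a test, 8 share 75.97% or more of their 75-base stretches with other genes. In the chromosome 2 cluster, which holds 11 members, Zfp967, Zfp968 and Zfp969 had no read in any library, and 92.34% or more of the stretches of each occur elsewhere. Zfp966 had 0 and 5 reads in wild-type, 0 and 5 in Δexon6/Δexon6, 5 and 6 in Δexon6/+ and 3 and 9 in insASAY. Zfp781 had 3 and 1 reads in wild-type, 5 and 0 in Δexon6/Δexon6, 1 and 2 in Δexon6/+ and 14 and 9 in insASAY. Zfp648, Zfp616 and Zfp735 also had no read, though none of their stretches occur elsewhere. These members were named after their values were seen.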
